A study of Mus musculus with 15 samples.

Results

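C1qtnf1, C1qtnf2, C1qtnf6, C1qtnf7 and C1qtnf9 encode secreted proteins of the C1q/TNF-related protein (CTRP) family, and their transcripts were followed in mouse ventricle. The 5 genes were taken by symbol from the 36653 gene identifiers of the expression table, and each symbol matched 1 identifier. The members were chosen by symbol in sight of their FPKM in these same libraries and groups, so the levels and changes of the 5 genes are a description of these libraries and not independent evidence of a direction.

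The study placed wild type C57BL/6 mice, 10 weeks old, in 3 groups of 5 biological replicates, and RNA from the ventricles was enriched for polyadenylated transcripts and sequenced on an Illumina HiSeq2000. The AngII plus OA group was infused with angiotensin II (AngII), the peptide hormone of blood pressure control, at 1000 ng/kg/min from a pump under the skin, and received OA at 160 mg/kg, which the series title gives as oleic acid, in 0.3 mL daily. The AngII group carried the same pump without OA, and the vehicle group received saline. All 3 groups shared strain, genotype and age, and the length of treatment, and how OA and saline were given, are not stated in the sources used here.

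CTRP proteins are paralogs of adiponectin, the fat-derived hormone. Most have a signal peptide for secretion, a collagen-like stretch in which glycine returns at a fixed interval of 3 residues, and a globular C1q domain at the end through which 3 chains assemble into a trimer. Several members circulate as hormones and others act near the cells that make them, and in the heart CTRP9 and CTRP1 in particular have been studied in models of injury and pressure overload.

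The collagen-like stretch is what allows these chains to wind into a triple helix, and its first bases are shown for all 5 genes to make the shared repeat visible. Each line gives 63 bases of coding sequence, 21 codons, from the start of the longest glycine repeat, with glycine codons in capitals (GENCODE M21 transcripts).
C1qtnf6: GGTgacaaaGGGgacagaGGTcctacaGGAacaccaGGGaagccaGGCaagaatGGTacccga
C1qtnf1: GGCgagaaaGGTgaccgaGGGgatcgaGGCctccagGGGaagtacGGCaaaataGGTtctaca
C1qtnf7: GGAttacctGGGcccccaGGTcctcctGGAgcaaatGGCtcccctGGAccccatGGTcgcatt
C1qtnf2: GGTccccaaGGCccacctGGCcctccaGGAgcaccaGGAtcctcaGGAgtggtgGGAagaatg
C1qtnf9: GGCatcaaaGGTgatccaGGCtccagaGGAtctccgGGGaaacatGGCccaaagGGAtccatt
In every line the capitals return at intervals of 3 codons without a break. The longest unbroken repeat ran for 14 triplets in both C1qtnf6 and C1qtnf1, for 34 triplets in both C1qtnf7 and C1qtnf2, and for 37 triplets in C1qtnf9. Counted over all runs of 3 or more triplets, C1qtnf9 had 56 triplets, more than its longest repeat alone. By this count it had the largest share of the 5, at 50.5% of its 333 residues. C1qtnf7 followed at 34.5% of 296 residues, and C1qtnf6 had 15.9% of 264 residues.

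The C1q end of the proteins paired the genes in the same way. Over the last 130 residues, C1qtnf7 and C1qtnf2 were 71.0% identical, and C1qtnf6 and C1qtnf1 were 61.2% identical. C1qtnf9 stood closest to C1qtnf2, at 47.2%, and farthest from C1qtnf6, at 29.8%, the lowest value of the 10 pairs. At the level of RNA little sequence was shared with other genes, except for C1qtnf1. No stretch of 50 bases of C1qtnf2 or C1qtnf9 occurred in another annotated gene, and 0.361% of those of C1qtnf7 did. The figure was 2.58% for C1qtnf6, all of it on the opposite strand of Gm49490, and 20.1% for C1qtnf1, most of it on opposite strands. C1qtnf1 overlaps the antisense gene Gm11747, which was above 0 in 2 of the 15 libraries and reached 0.0465 FPKM. Whether the authors counted by strand is not given in the sources used here, so reads of C1qtnf1 and of its antisense partner cannot be told apart with certainty. The same holds for the 117 exon bases that C1qtnf6 shares with Gm49490, which had no measured level here.

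Values are FPKM, the authors' fragments per kilobase of gene scaled to library size, and the libraries had denominators of 24.5 to 28.3 M reads. Mitochondrially encoded genes took 42.4 ± 3.10% of the summed FPKM in AngII plus OA hearts, 41.1 ± 5.20% in AngII hearts and 47.1 ± 2.52% in vehicle hearts (SD, n = 5 each), a share that moves the FPKM of every other gene. AngII replicate 2 stood apart, at 66.1 on the first principal component (29.0% of the variance) against -17.2 to 8.98 for the other 14 libraries. The summed level of 6 cardiomyocyte markers was at least 5547 FPKM in every library, as heart muscle would give. Most of these markers do not separate ventricle from atrium, but Myl2, the ventricular light chain, was the largest part of the sum. It gave 6260 of 11271 FPKM in AngII plus OA replicate 1 and 2555 of 5547 FPKM in AngII replicate 2. The sum of 5 atrial markers varied within each group, from 50.1 to 674 FPKM in AngII plus OA hearts, from 78.3 to 3046 FPKM in AngII hearts and from 17.0 to 750 FPKM in vehicle hearts. Some low sums were mostly 1 marker, Nppa, at 48.1 of 50.1 FPKM in AngII plus OA replicate 2 and 97.3 of 100.1 FPKM in AngII replicate 5. The atrial marker Myl7 was 1.05 and 1.49 FPKM in these libraries. AngII replicate 2 had the lowest cardiomyocyte sum and the highest atrial sum, and its 5 mesothelial markers summed to 87.6 FPKM, the highest of the 15 libraries. Results for the 5 genes are therefore given with and without it where it moves them.

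C1qtnf9 was the most abundant member and C1qtnf1 the least abundant in each group. C1qtnf9 averaged 41.5 ± 5.18 FPKM in AngII plus OA hearts, 43.7 ± 18.3 FPKM in AngII hearts and 39.7 ± 6.18 FPKM in vehicle hearts (SD, n = 5 each). On the per-length FPKM scale it made up 75.3 ± 2.61% of the summed level of the 5 genes in AngII plus OA hearts, 66.1 ± 15.9% in AngII hearts and 77.8 ± 6.34% in vehicle hearts. It lay above about 93.0% of the genes with a group mean of at least 0.5 FPKM in each group.

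Between these extremes the order of C1qtnf6, C1qtnf2 and C1qtnf7 differed by group. With AngII plus OA, C1qtnf6 (mean 4.45 FPKM), C1qtnf2 (4.44 FPKM) and C1qtnf7 (3.65 FPKM) overlapped. In AngII hearts C1qtnf6 came second at 9.02 FPKM and was above C1qtnf2 and C1qtnf7 in 5 of 5 libraries, while C1qtnf2 (4.56 FPKM) and C1qtnf7 (4.18 FPKM) overlapped. In vehicle hearts C1qtnf2 (4.17 FPKM), C1qtnf6 (3.32 FPKM) and C1qtnf7 (2.38 FPKM) overlapped, and C1qtnf6 was above C1qtnf2 in 1 of 5 libraries.

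**Figure D1:**
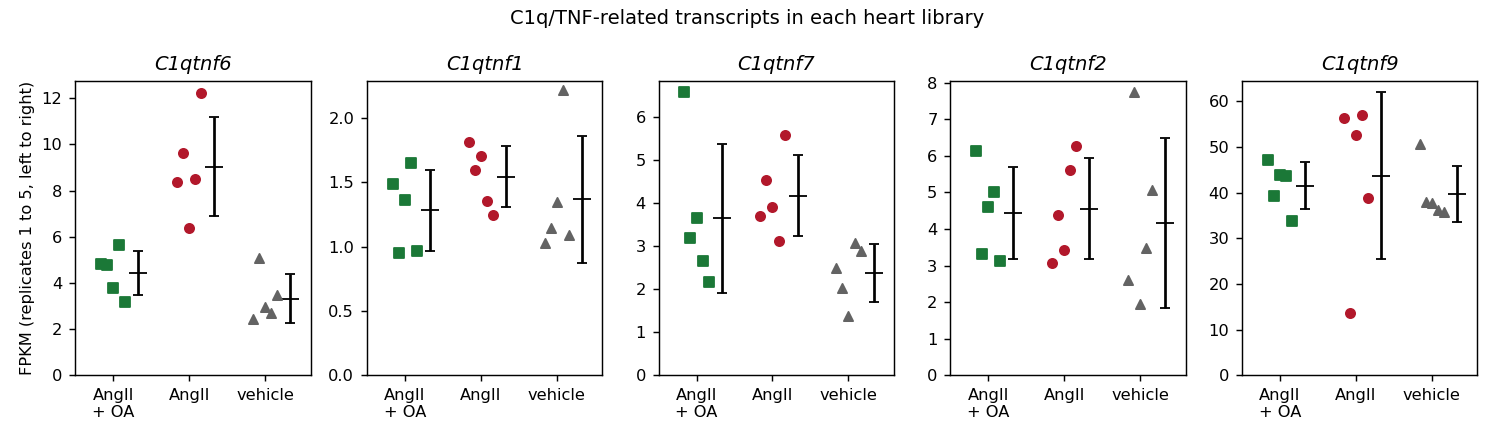
FPKM of the 5 genes in each library, with replicates 1 to 5 from left to right in each group and the group mean ± SD as a bar beside the points. The 5 AngII libraries of C1qtnf6, at 6.39 to 12.2 FPKM, sit above all other libraries, and the low AngII point of C1qtnf9 is replicate 2, at 13.7 FPKM.

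C1qtnf6 rose in AngII hearts, and its mean was lower in AngII plus OA hearts than in AngII hearts without passing the threshold of the test. C1qtnf6 encodes CTRP6, a secreted protein known as an inhibitor of the alternative complement pathway and studied in fibrosis. Its level was 4.82, 4.80, 3.80, 5.63 and 3.19 FPKM in AngII plus OA hearts, 8.38, 9.61, 6.39, 8.51 and 12.2 FPKM in AngII hearts, and 2.43, 5.07, 2.95, 2.69 and 3.49 FPKM in vehicle hearts. Every AngII library was above every library of both other groups, whereas the AngII plus OA and vehicle ranges overlapped. Of the 13121 genes tested, 0.381% (50 genes) had every AngII library above all 10 others.

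In AngII hearts C1qtnf6 averaged 9.02 ± 2.14 FPKM, against 3.32 ± 1.05 FPKM in vehicle hearts (SD, n = 5 each), a ratio of means of 2.72. On the log2(FPKM + 1) scale the difference was 1.22 with an SE of 0.18 and a 95% interval of 0.84 to 1.59 (limma, adjusted p = 0.0114 over all genes tested). By p it ranked 5 among the 13121 genes. C1qtnf6 was the 1 called member of 5, in a comparison in which 1.50% of all genes tested were called and 1.27% were called higher. The count of calls was 49 to 425 with 1 library left out. The 197 calls with all libraries split into 166 higher and 31 lower genes. Quantile normalization gave 69 higher with 40 lower genes, and rescaling without mitochondrial genes gave 86 higher with 37 lower. The call for C1qtnf6 held in each of the 17 alternative fits, with differences of 1.11 to 1.43 and adjusted p of 0.00468 to 0.0395. Without AngII replicate 2 the difference was 1.19. In whole ventricle, more cells of a type and more RNA per cell cannot be told apart.

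Under AngII plus OA, C1qtnf6 averaged 4.45 ± 0.958 FPKM, against 9.02 ± 2.14 FPKM in AngII hearts (SD, n = 5 each), a ratio of means of 0.493. The difference was -0.87 on the log2(FPKM + 1) scale (SE 0.18, 95% interval -1.25 to -0.50). By p it ranked 2 among all genes tested and did not pass the threshold (limma, unadjusted p = 0.000163, adjusted p = 0.574). In this comparison 0% of genes were called (0 of 13121), while 866 had an unadjusted p under 0.05, and 1.04% had every AngII plus OA library below every AngII library, C1qtnf6 among them. Across the 17 alternative fits the difference was -1.001 to -0.77 and the adjusted p 0.128 to 0.992. Without AngII replicate 2 it was -0.85.

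Against vehicle hearts, AngII plus OA hearts had C1qtnf6 at 4.45 ± 0.958 FPKM, compared with 3.32 ± 1.05 FPKM (SD, n = 5 each). The difference was 0.34 on the log2(FPKM + 1) scale, with a 95% interval of -0.03 to 0.72. In this comparison too 0% of genes were called, with 441 at an unadjusted p under 0.05. All 5 AngII plus OA libraries were above the vehicle median, and vehicle replicate 2, at 5.07 FPKM, was above 4 of them. The comparisons of AngII plus OA and of vehicle with AngII share the AngII libraries, so a high draw in those libraries moves both.

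Counting error was small beside the spread between hearts for C1qtnf6. The FPKM of this gene corresponded to 152 to 805 reads a library. In AngII hearts these reads give a counting coefficient of variation of 4.20%, against an observed 23.7%. The values were 5.99% and 21.6% in AngII plus OA hearts, and 7.03% and 31.6% in vehicle hearts.

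**Figure D2:**
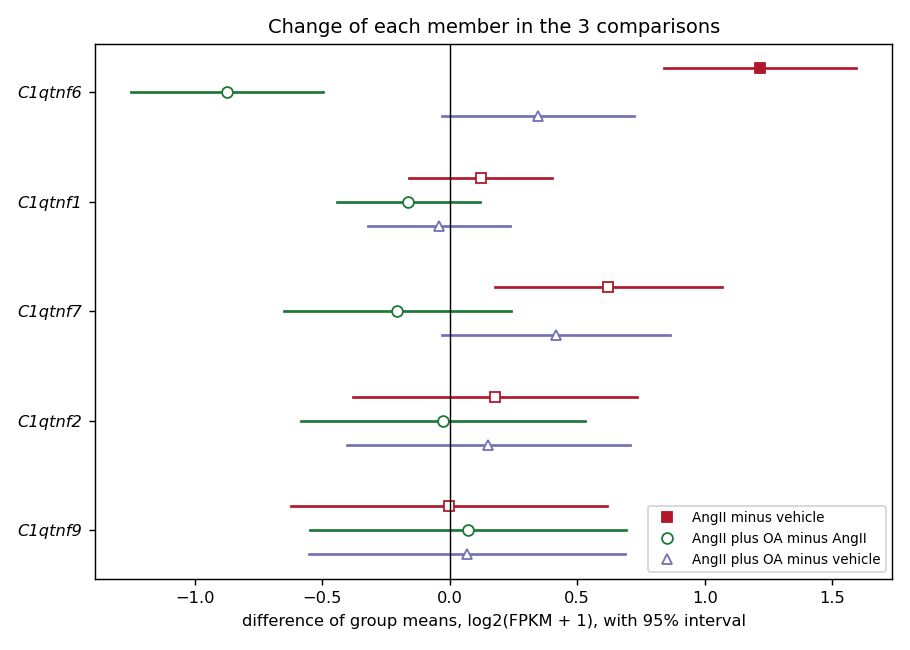
Difference of group means on the log2(FPKM + 1) scale with its 95% interval for the 5 genes in the 3 comparisons, filled where the adjusted p was under 0.05. The filled symbol is C1qtnf6 in AngII minus vehicle, at 1.22, and its AngII plus OA minus AngII difference lies at -0.87.

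C1qtnf1, the closest relative of C1qtnf6 among the 5, encodes CTRP1, which is known from adipose tissue and is studied in aldosterone production and vascular disease. Its level was 1.48, 0.951, 1.36, 1.65 and 0.966 FPKM in AngII plus OA hearts, 1.81, 1.60, 1.71, 1.36 and 1.25 FPKM in AngII hearts, and 1.03, 1.14, 1.35, 2.22 and 1.09 FPKM in vehicle hearts. The 3 groups overlapped, and the highest library was vehicle replicate 4. The difference was 0.12 (95% interval -0.16 to 0.40, adjusted p = 0.690) for AngII minus vehicle and -0.16 (-0.44 to 0.12, adjusted p = 0.796) for AngII plus OA minus AngII, by limma on the log2(FPKM + 1) scale. For AngII plus OA minus vehicle it was -0.04 (-0.32 to 0.24). Without vehicle replicate 4 the AngII minus vehicle difference was 0.24, and without vehicle replicate 1 it was 0.07. C1qtnf1 rested on 77 to 186 reads a library, with a median of 108, the lowest of the 5 genes.

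Within each library C1qtnf6 exceeded C1qtnf1. The ratio of their FPKM was 3.56 ± 0.864 in AngII plus OA hearts, 6.09 ± 2.32 in AngII hearts and 2.68 ± 1.21 in vehicle hearts (SD, n = 5 each). The groups overlapped in this ratio. The ratio, like the other ratios below, was chosen after the values were seen and is given with no test.

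C1qtnf7 was higher in AngII hearts than in vehicle hearts without passing the threshold. C1qtnf7 encodes CTRP7, a less studied member that has been linked to glucose metabolism in mice. Its level was 6.58, 3.19, 3.65, 2.65 and 2.18 FPKM in AngII plus OA hearts, 3.71, 4.55, 3.92, 3.11 and 5.59 FPKM in AngII hearts, and 2.51, 2.03, 1.39, 3.07 and 2.89 FPKM in vehicle hearts. The lowest AngII library was just above the highest vehicle library, and the AngII plus OA libraries spread over both ranges, with the highest value of all 15 in AngII plus OA replicate 1. AngII hearts averaged 4.18 ± 0.942 FPKM, against 2.38 ± 0.681 FPKM in vehicle hearts (SD, n = 5 each), and the log2 difference was 0.62 (SE 0.21, 95% interval 0.18 to 1.07, limma adjusted p = 0.149). Of all genes tested, 3.13% had every AngII library above every vehicle library, and C1qtnf6 and C1qtnf7 were the 2 members that did.

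AngII plus OA hearts averaged 3.65 ± 1.73 FPKM of C1qtnf7, against 4.18 ± 0.942 FPKM in AngII hearts. The difference was -0.20 on the log2(FPKM + 1) scale, with a 95% interval of -0.65 to 0.24. It was 0.42 for AngII plus OA minus vehicle, with an interval of -0.03 to 0.86. Without AngII plus OA replicate 1 the first of these was -0.40 and the second 0.22. Without AngII plus OA replicate 5 they were -0.09 and 0.54.

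C1qtnf2, the near relative of C1qtnf7, encodes CTRP2, which is known to act on fuel use in muscle and liver. Its level was 6.14, 3.31, 4.60, 5.01 and 3.13 FPKM in AngII plus OA hearts, 3.07, 4.38, 3.43, 5.62 and 6.28 FPKM in AngII hearts, and 2.61, 7.75, 1.94, 3.48 and 5.07 FPKM in vehicle hearts. The vehicle group held both the lowest and the highest of the 15 values. The log2 difference was 0.18 (95% interval -0.38 to 0.73, limma adjusted p = 0.782) for AngII minus vehicle, -0.03 (-0.58 to 0.53) for AngII plus OA minus AngII and 0.15 (-0.40 to 0.71) for AngII plus OA minus vehicle. With 1 library left out the first of these ran from 0.0016, without vehicle replicate 3, to 0.39, without vehicle replicate 2. With 65 to 249 reads a library, its counting coefficient of variation in vehicle hearts was 8.53%, against an observed 55.6%.

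The ratio of C1qtnf7 to C1qtnf2 within a library was 0.810 ± 0.215 in AngII plus OA hearts, 0.966 ± 0.260 in AngII hearts and 0.678 ± 0.277 in vehicle hearts (SD, n = 5 each), with overlapping ranges. The ratio of C1qtnf6 to C1qtnf2 was 1.04 ± 0.267 in AngII plus OA hearts, 2.05 ± 0.453 in AngII hearts and 0.912 ± 0.354 in vehicle hearts. For this ratio the lowest AngII library, at 1.51, was above the highest AngII plus OA library, at 1.45, and overlapped vehicle replicate 3, at 1.52.

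C1qtnf9 did not differ detectably between the groups with all libraries included, and its estimate turned on AngII replicate 2. C1qtnf9 encodes CTRP9, the closest paralog of adiponectin, which acts through AMPK and Akt signalling and has been described in the heart as a product of endothelial cells. Its level was 47.2, 39.2, 43.9, 43.6 and 33.8 FPKM in AngII plus OA hearts, 56.3, 13.7, 52.6, 57.1 and 38.9 FPKM in AngII hearts, and 50.6, 38.0, 37.7, 36.3 and 35.8 FPKM in vehicle hearts. AngII replicate 2 was the lowest of the 15 libraries, and 3 of the other 4 AngII libraries were the highest.

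The difference for C1qtnf9 in AngII minus vehicle was -0.00 on the log2(FPKM + 1) scale (SE 0.29, 95% interval -0.62 to 0.62, limma adjusted p = 0.996). Without AngII replicate 2 it was 0.36 (adjusted p = 0.189), and with limma's array quality weights it was 0.32 (adjusted p = 0.333). For AngII plus OA minus AngII it was 0.07 (-0.55 to 0.69), and -0.29 without AngII replicate 2. For AngII plus OA minus vehicle, which does not draw on that library except through the shared spread, it was 0.07 (-0.55 to 0.69).

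AngII replicate 2 was low in C1qtnf9, and of the 6 endothelial markers Kdr alone was below its range in the other 14 libraries. Its Kdr, the VEGF receptor of endothelial cells, was 7.40 FPKM, against 20.0 to 32.6 FPKM in the other 14 libraries, while its Pecam1, an endothelial adhesion molecule, was 84.3 FPKM, against 31.4 to 50.6 FPKM. The endothelial markers Tek and Emcn, at 29.3 and 40.4 FPKM in this library, were also the highest of the 15, and Cdh5 and Tie1 lay within the range of the others. Its C1qtnf9 to Cdh5 ratio was 0.246, against 0.518 to 0.825 in the other 14 libraries. Its C1qtnf9 to Pecam1 ratio was 0.163, against 0.875 to 1.25 in the other 14 libraries. The ratio averaged 1.07 ± 0.0949 in AngII plus OA hearts and 1.06 ± 0.144 in vehicle hearts (SD, n = 5 each), and the other 4 AngII libraries lay between 0.875 and 1.16. The atrial, mesothelial and cardiomyocyte sums of this library are given above, and its sum of 6 adipocyte markers, 302 FPKM, was the highest of the 15 libraries. The part of these sums in its C1qtnf9 level was not tested.

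Markers of fibroblasts and endothelial cells were summed in each library. The sum of 8 fibroblast markers ranged from 578 to 1151 FPKM (median 818) in AngII plus OA hearts, with no marker at 0 in any group. It ranged from 799 to 1261 FPKM (median 1010) in AngII hearts and from 428 to 804 FPKM (median 776) in vehicle hearts. Dcn made up most of this sum, at 798 of 1151 FPKM in AngII plus OA replicate 1 and 1001 of 1261 FPKM in AngII replicate 2. Dcn itself was not called in AngII minus vehicle (limma, adjusted p = 0.308). Of these markers, 3 of 8 rose in AngII hearts, namely Pi16 (1.39, adjusted p = 0.0114), Col1a2 (1.44, adjusted p = 0.0127) and Col1a1 (1.52, adjusted p = 0.0250), by limma on the log2(FPKM + 1) scale. Pi16 kept its call in all 17 alternative fits, Col1a2 lost it with a replicate block (adjusted p = 0.0502), and Col1a1 lost it in 8, among them those without AngII replicate 1, 4 or 5 or vehicle replicate 2, 4 or 5 (adjusted p of at most 0.0704). The median of the 8 markers in AngII minus vehicle was 0.64, beside 0.07 for all genes tested, of which 1.27% were called higher. The sum of 6 endothelial markers ranged from 173 to 229 FPKM in AngII plus OA hearts, from 208 to 259.8 FPKM in AngII hearts and from 188 to 214.9 FPKM in vehicle hearts, again with none at 0, and 0 of 6 were called. None of these markers was called in the comparisons with AngII plus OA. The part of the fibroblast and endothelial levels in the change of C1qtnf6 was not tested.

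C1qtnf6 was also set against fibroblast transcripts within each library. The ratio of C1qtnf6 to Tcf21, a fibroblast transcription factor, was 0.605 ± 0.115 in AngII plus OA hearts, 1.06 ± 0.284 in AngII hearts and 0.511 ± 0.149 in vehicle hearts (SD, n = 5 each), and every AngII library was above all 10 others. The ratio to Pdgfra, the PDGF receptor that marks fibroblasts, was 0.809 ± 0.182 in AngII plus OA hearts, 1.28 ± 0.243 in AngII hearts and 0.682 ± 0.337 in vehicle hearts, where vehicle replicate 2, at 1.23, overlapped the AngII range. The ratio to Col1a2, a chain of type I collagen, was 0.261 ± 0.0412 in AngII plus OA hearts, 0.292 ± 0.0533 in AngII hearts and 0.304 ± 0.0648 in vehicle hearts, and all 3 groups overlapped. These levels of 2 genes are per length, and the ratios were chosen after the values were seen.

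**Figure D3:**
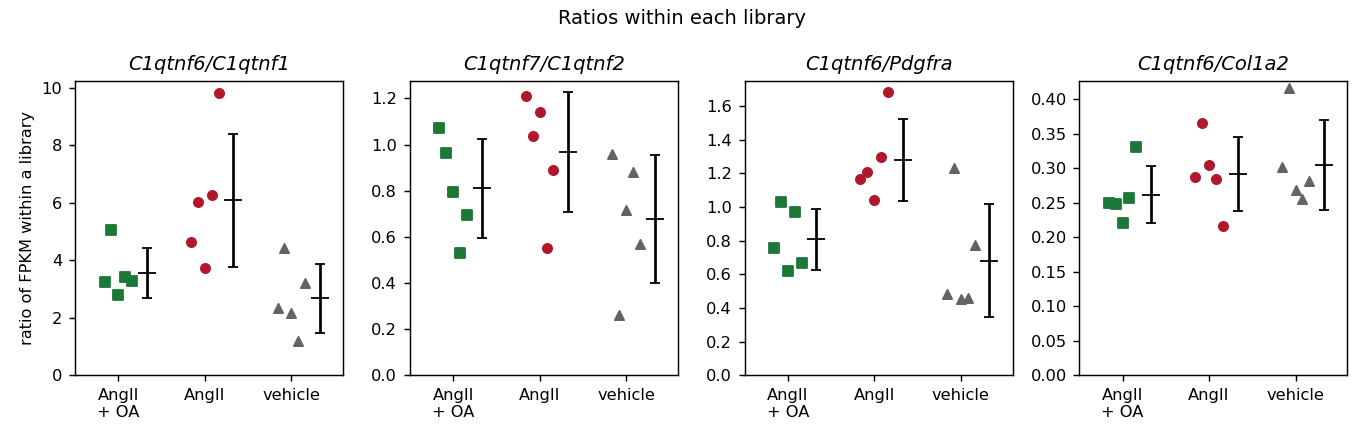
Ratios of FPKM within each library, with replicates 1 to 5 from left to right and the group mean ± SD as a bar. C1qtnf6 relative to Pdgfra averaged 1.28 in AngII hearts and 0.682 in vehicle hearts, and relative to Col1a2 it averaged 0.292 and 0.304 in the same groups.

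For C1qtnf6 the 3 most similar genes over the 15 libraries were Loxl1, Adamts2 and Pmepa1. On the log2(FPKM + 1) scale their Pearson correlations with C1qtnf6 were 0.958 for Loxl1, a lysyl oxidase that cross-links elastin, 0.950 for Adamts2, which trims procollagen, and 0.947 for Pmepa1, a TGF-beta target that dampens the pathway. Without AngII replicate 2, over 14 libraries, they were 0.956, 0.945 and 0.942. The libraries share their groups, tissue and depth range, so these values describe a common pattern across the 3 groups and carry no p. Col1a2 stood at r = 0.943, with 4 genes of all those tested more like C1qtnf6, and Col1a1 at 0.839, or 0.920 without AngII replicate 2.

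Loxl1 averaged 24.3 ± 5.56 FPKM in AngII plus OA hearts, 38.4 ± 8.37 FPKM in AngII hearts and 15.8 ± 2.11 FPKM in vehicle hearts (SD, n = 5 each). C1qtnf6 relative to Loxl1 was 0.167 to 0.200 in AngII plus OA hearts, 0.209 to 0.253 in AngII hearts and 0.180 to 0.281 in vehicle hearts. The AngII plus OA and AngII ranges of this ratio did not overlap, and the vehicle range overlapped both.

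**Figure D4:**
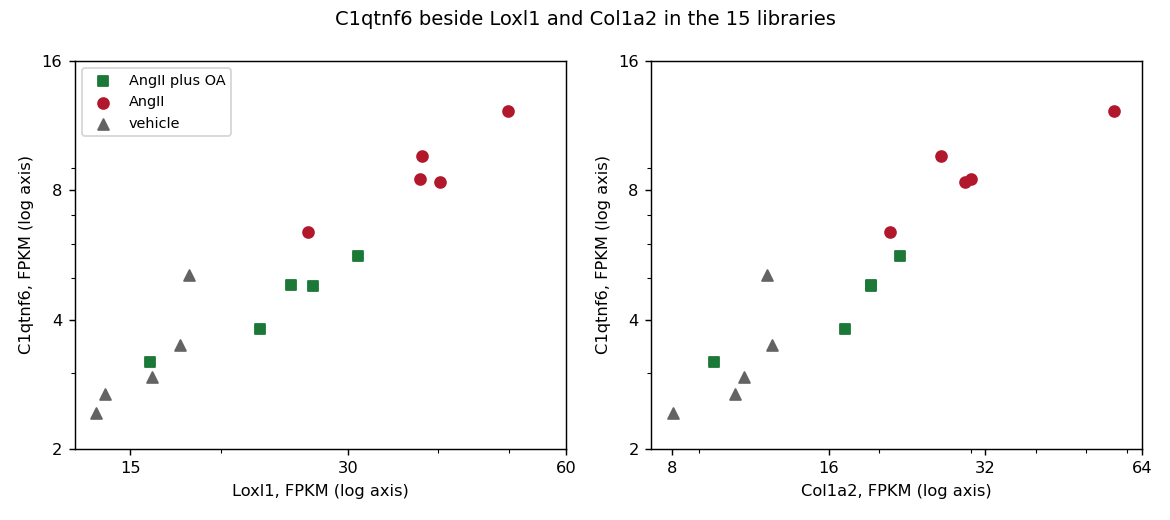
C1qtnf6 against Loxl1 (left) and Col1a2 (right), both in FPKM on log axes, with 1 point per library. C1qtnf6 rises with both across the 15 libraries (r = 0.958 and 0.943 on the log2(FPKM + 1) scale), with AngII libraries at the upper right.

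The other members were most like different genes. C1qtnf7 was closest to Pde1a (r = 0.927), a calcium-dependent phosphodiesterase, then Fibin (0.881) and Zfp354c (0.874), a zinc finger gene. C1qtnf2 was closest to Dact3 (0.896), an inhibitor of Wnt signalling, then Rsph9 (0.883) and Xylt2 (0.881), which starts proteoglycan chains. C1qtnf1 was closest to Abat (0.910), a GABA-degrading enzyme, then Vopp1 (0.886) and Taf3 (0.865).

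For C1qtnf9 the 3 closest genes were Kcnj8 (r = 0.954), a subunit of vascular ATP-sensitive potassium channels, Gmnn (0.946), a regulator of DNA replication, and Shroom4 (0.936). Without AngII replicate 2 these correlations were 0.810, 0.835 and 0.760. C1qtnf9 and Pecam1 had r = -0.43 with that library and 0.792 without it. C1qtnf9 and Kdr had 0.853 with it and 0.298 without it. Both values moved by over 0.5 when 1 library was left out.

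The promoters of C1qtnf6 and C1qtnf7, the 2 members whose AngII libraries were all above vehicle, are shown as the 250 bases upstream of the gene start (RefSeq, GRCm38.p6), with matches to 5 short motifs in capitals. The motifs, searched on both strands, were the AP-1 site with letters TGACTCA, the CCAAT box as its name spells it, the GC box with letters GGGCGG, the TATA box with letters TATAAA and the TEAD site with letters GGAATG. C1qtnf6 lies at chr15:78529652-78529901 on the minus strand and C1qtnf7 at chr5:43515319-43515568 on the plus strand.
C1qtnf6: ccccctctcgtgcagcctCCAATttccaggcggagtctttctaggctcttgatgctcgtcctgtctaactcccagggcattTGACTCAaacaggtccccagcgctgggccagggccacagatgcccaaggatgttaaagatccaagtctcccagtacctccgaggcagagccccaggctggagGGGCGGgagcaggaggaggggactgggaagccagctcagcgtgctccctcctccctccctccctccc
C1qtnf7: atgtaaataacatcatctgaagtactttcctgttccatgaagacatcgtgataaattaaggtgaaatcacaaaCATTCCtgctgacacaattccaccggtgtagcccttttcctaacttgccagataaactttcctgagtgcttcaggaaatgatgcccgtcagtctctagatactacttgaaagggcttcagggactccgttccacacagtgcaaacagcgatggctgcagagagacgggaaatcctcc
The C1qtnf6 window held 1 match each to CCAAT, AP-1 and the GC box, none overlapping another, and the C1qtnf7 window held 1 match to TEAD. The windows of members not shown also held matches, with 1 to TEAD in C1qtnf9 and 1 to the GC box in C1qtnf2. No window was available for C1qtnf1. Of 32851 promoter windows of the same length, 33.8% held CCAAT, 32.7% the GC box, 12.6% TEAD and 4.46% AP-1. A match is a run of letters in these windows and was not tested for binding.

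Beyond the 5 genes, the CTRP family was represented by few transcripts. Of 9 further family genes, 8 were in the table (C1qtnf5 was not analysed here), and 3 passed the filter of a mean FPKM of at least 0.5, namely C1qtnf12, C1qtnf4 and Adipoq. None of the 3 was called in any comparison. C1qtnf12, an insulin-sensitising adipokine also called adipolin, was 7.04 ± 1.09 FPKM in AngII plus OA hearts, 6.81 ± 0.464 FPKM in AngII hearts and 6.57 ± 1.15 FPKM in vehicle hearts (SD, n = 5 each). Its log2 difference of 0.06 in AngII minus vehicle turned to -0.06 with quantile normalization and -0.02 with rescaling without mitochondrial genes.

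C1qtnf4, which carries a pair of C1q domains, had no run of 3 or more glycine triplets in its coding sequence. It averaged 3.48 ± 0.776 FPKM in AngII plus OA hearts, 2.81 ± 0.911 FPKM in AngII hearts and 3.75 ± 1.97 FPKM in vehicle hearts. Adipoq, adiponectin itself, ranged from 0.0560 to 2.24 FPKM in AngII plus OA hearts, from 0.0529 to 23.4 FPKM in AngII hearts and was listed at 0 to 1.16 FPKM in vehicle hearts. The 6 adipocyte markers summed to 0.686 to 23.6 FPKM in AngII plus OA hearts, 1.23 to 302 FPKM in AngII hearts and 0.278 to 11.0 FPKM in vehicle hearts. AngII replicates 2 and 4 held the high values, with sums of 302 and 88.7 FPKM and Adipoq at 23.4 and 10.2 FPKM. No other library had a sum above 23.6 FPKM. Plin1, Lep, Adipoq and Retn were each at 0 in at least 1 library. C1qtnf3, C1ql1, C1ql2, C1ql3 and C1ql4 averaged under 0.5 FPKM.

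**Figure D5:**
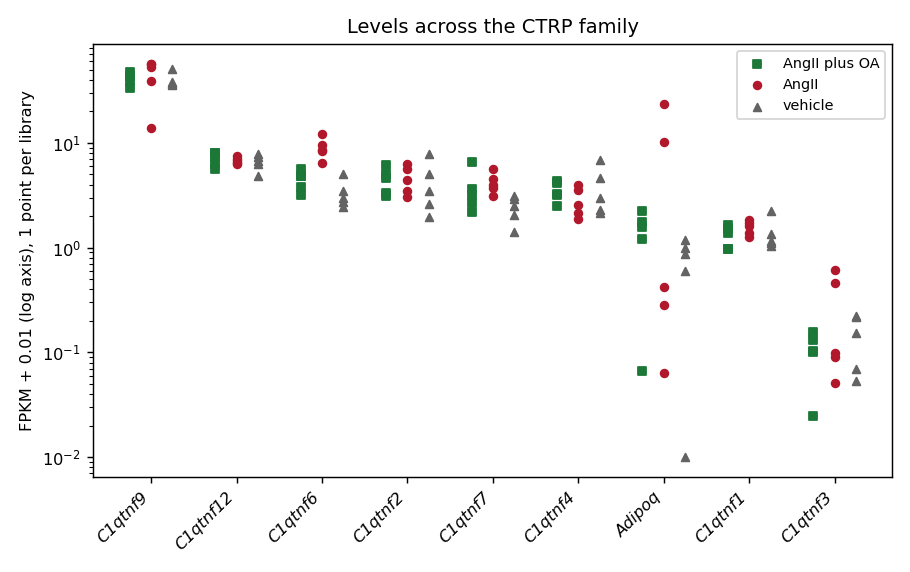
FPKM plus 0.01 on a log axis for the family genes with a mean of at least 0.1 FPKM, with 1 point per library and genes ordered by mean level. C1qtnf9 is the highest, and the Adipoq points spread from 0 to 23.4 FPKM.

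Members were compared with other proteins that end in a C1q domain. Of 16 such genes 10 were tested. In AngII minus vehicle 5 rose and none fell, where 1.27% of all genes tested were called higher. The median difference was 0.74 on the log2(FPKM + 1) scale, beside 0.18 for the 5 members and 0.07 for all genes tested. Col8a2, at 0.79, enters this median. It averaged 0.217 FPKM in vehicle hearts, 0.595 FPKM in AngII plus OA hearts and 1.35 FPKM in AngII hearts. Its AngII level thus helped it pass the filter of 0.5 FPKM. The list was chosen with earlier results of these data known, so its medians are a description. The genes that rose were C1qb (0.88, adjusted p = 0.0148), C1qa (0.79, adjusted p = 0.0304) and C1qc (0.70, adjusted p = 0.0335), the chains of complement C1q made by macrophages, Emilin1 (0.89, adjusted p = 0.0163), an elastic fibre protein, and Col8a1 (1.61, adjusted p = 0.0264), a short-chain collagen, all by limma. C1qc fell outside the naming rule and was named after its values were seen. C1qb kept its call in all 17 alternative fits. Emilin1 lost it with a replicate block and without vehicle replicate 5 (adjusted p of at most 0.0521). Col8a1, C1qa and C1qc lost theirs in 8, 10 and 13 fits, each of them without AngII replicate 1, 4 or 5 and without vehicle replicate 4 or 5, with adjusted p of at most 0.0772, 0.0880 and 0.0928. Col8a1 also lost its call without vehicle replicate 2, C1qa without vehicle replicate 1 or 3, and C1qc without vehicle replicate 1, 2 or 3. The 6 macrophage markers, C1qa among them, summed to 116 to 172 FPKM in AngII plus OA hearts, 124 to 207 FPKM in AngII hearts and 90.1 to 129 FPKM in vehicle hearts. C1qa made up most of this sum, at 159 of 207 FPKM in AngII replicate 5 and 60.6 of 90.1 FPKM in vehicle replicate 1. Besides C1qa, Cd163 was called in AngII minus vehicle (0.90, limma adjusted p = 0.0424), and Adgre1, Cd68, Csf1r and Mrc1 were not. The part of macrophages in the C1q changes was not tested.

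In AngII plus OA minus AngII none of the 10 was called and the median was -0.28, beside -0.16 for the 5 members and -0.05 for all genes tested. C1qb was 79.3 ± 14.7 FPKM in AngII plus OA hearts and 103.9 ± 19.7 FPKM in AngII hearts, and C1qa was 103 ± 16.2 FPKM and 128.8 ± 28.1 FPKM in the same groups (SD, n = 5 each). In AngII plus OA minus vehicle none was called either, and the median was 0.38, beside 0.15 for the 5 members and 0.02 for all genes tested. C1qb differed by 0.50 and C1qa by 0.49 there on the log2(FPKM + 1) scale.

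The receptors of adiponectin, through which some members are thought to act, were measured in all libraries. Of 6 receptor and adaptor genes 5 were tested, and none was called in any comparison, with median differences of 0.09 for AngII minus vehicle, -0.18 for AngII plus OA minus AngII and -0.04 for AngII plus OA minus vehicle. Adipor1, an adiponectin receptor, averaged 25.0 ± 2.10 FPKM in AngII plus OA hearts, 28.8 ± 5.05 FPKM in AngII hearts and 25.6 ± 2.37 FPKM in vehicle hearts (SD, n = 5 each). Its difference of 0.15 in AngII minus vehicle turned to -0.02 with quantile normalization. Appl2, an adaptor of that receptor, differed by -0.36 in AngII minus vehicle (limma, adjusted p = 0.462). With 1 library left out that difference ran from -0.48, without AngII replicate 5, to -0.20, without AngII replicate 1.

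Adipor2, the second adiponectin receptor, was named after its values were seen. It was 10.9, 10.8, 13.1, 13.6 and 13.3 FPKM in AngII plus OA hearts, 16.2, 21.0, 15.2, 15.5 and 15.9 FPKM in AngII hearts, and 13.3, 10.4, 13.6, 13.8 and 9.90 FPKM in vehicle hearts. Every AngII library was above every other library, a pattern that 0.381% of all genes tested had (50 of 13121), C1qtnf6 among them. The differences were 0.43 for AngII minus vehicle (limma, adjusted p = 0.0908) and -0.41 for AngII plus OA minus AngII (adjusted p = 0.706), and neither passed the threshold.

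Signalling and folding genes around the family gave few calls. None of the 11 AMPK and Akt genes was called in any comparison, and their median differences were 0.10 for AngII minus vehicle, -0.14 for AngII plus OA minus AngII and -0.03 for AngII plus OA minus vehicle. Akt1, a kinase downstream of adiponectin-like hormones, differed by 0.17, -0.20 and -0.03 in these comparisons, and Stk11, the kinase that activates AMPK, by 0.10, -0.17 and -0.08. With 1 library left out the AngII minus vehicle difference of Akt1 ran from 0.09, without AngII replicate 1, to 0.29, without AngII replicate 5, and that of Stk11 from -0.01, without AngII replicate 2, to 0.19, without vehicle replicate 2. Of the genes that fold and hydroxylate collagen stretches, 9 of 10 were tested. In AngII minus vehicle, where 1.27% of all genes tested were called higher, 1 of the 9 rose. It was P4hb, a subunit of the prolyl hydroxylase (0.41, limma adjusted p = 0.0305). Its call was lost in 11 of 17 alternative fits, with adjusted p of at most 0.182, among them quantile normalization, rescaling and leaving out AngII replicate 1, 4 or 5 or vehicle replicate 1, 2, 4 or 5. P4hb averaged 86.0 ± 4.22 FPKM in AngII plus OA hearts, 100.4 ± 6.27 FPKM in AngII hearts and 75.2 ± 5.57 FPKM in vehicle hearts (SD, n = 5 each).

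None of the 9 was called in the comparisons with AngII plus OA, where the medians were -0.22 against AngII and 0.07 against vehicle. Serpinh1, the collagen chaperone, differed by -0.22 from AngII and by 0.07 from vehicle, with an SE of 0.34 in each. The first of these ran from -0.62, without AngII replicate 2, to -0.07, without AngII replicate 4. AngII replicate 2 had 63.6 FPKM of Serpinh1, in a group with a mean of 222 ± 94.3 FPKM (SD, n = 5).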

How the data were processed

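Polyadenylated RNA of ventricles from 15 mice was sequenced, per the labels' protocols. The deposited table holds FPKM computed by the authors. The submitters' processing notes name HISAT2 2.0.4 and mm8. What counted the reads, with which annotation and strand setting, is not given in the sources used here. Of the 36653 identifiers, 36464 matched a symbol in GENCODE M21. That annotation rests on another build than the mm8 named in the notes, and it served for names, lengths and coding sequence. At the summed exon lengths of M21, low FPKM values corresponded to whole reads, within 0.02, for 90.4% to 91.4% of values. The gene lengths behind the FPKM were thus mostly those of M21, which gave read numbers for the members. For C1qtnf6 a transcript length of 2402 bases gave whole reads, not the summed exon length of 2702. No count test was run.

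Groups came from the sample titles. Genes averaging at least 0.5 FPKM (13121) were fitted with limma 3.58.1 (R 4.3.3, trend on) on the log2(FPKM + 1) scale, using 1 fit for the 15 libraries and no term beside group. Fold changes on this scale understate changes of low genes. Genes were called at a 2-sided Benjamini-Hochberg adjusted p under 0.05 per comparison. Replicates differed by more than sampling noise in every pair (chi-square per degree of freedom of at least 28.4), so none was merged.

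The members and lists were chosen with earlier results of these data known. Besides the members, up to 4 called genes of a list were named, or its 2 most abundant where none was called, and the 3 genes most like each member. Alternatives were a pseudocount of 0.1, every gene above 0, quantile normalization, rescaling without mitochondrial genes, only the libraries compared, a replicate block, array quality weights and leaving out each library. Sequences were read with Biopython 1.88 and figures drawn with matplotlib 3.10.9.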

Additional observations from a re-analysis of the deposited data

Results flagged for a closer look

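Among 75 groups of 5 libraries examined, 8 had a library far from the other 4, where chance flags about 1 group in 20, and 4 of the 8 were in AngII replicate 2. Of the members, C1qtnf1 was 2.22 FPKM in vehicle replicate 4, against 1.35 FPKM in the next highest vehicle library. C1qtnf9 was 50.6 FPKM in vehicle replicate 1, with 38.0 FPKM next. Stk11 was 33.9 FPKM in AngII replicate 2, with 24.6 FPKM next, and 30.1 FPKM in vehicle replicate 2, with 22.9 FPKM next.

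Sums of cell type markers were also flagged. The endothelial markers summed to 214.9 FPKM in vehicle replicate 2, with 195.5 FPKM next. In AngII replicate 2 the mesothelial markers summed to 87.6 FPKM, with 12.5 FPKM next, and the atrial markers to 3046 FPKM, with 654 FPKM next. The cardiomyocyte markers of that library summed to 5547 FPKM, with 9588 FPKM in the next lowest AngII library. The low C1qtnf9 value of the same library, 13.7 FPKM, was not flagged by this measure, since the other 4 AngII values were themselves spread from 38.9 to 57.1 FPKM.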

How the results depend on the processing

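The number of genes called in AngII minus vehicle was 197, and it moved to 72 with every gene above 0, 109 with quantile normalization, 123 with rescaling without mitochondrial genes, 70 with only the libraries compared and 38 with a replicate block. Leaving out 1 library gave 49 to 425, with 86, 425, 70 and 49 without AngII replicate 1, 3, 4 and 5, and 79, 128, 70 and 50 without vehicle replicate 2, 3, 4 and 5. AngII plus OA minus AngII gave 0 calls, and 0 to 1 with 1 library left out, the 1 without AngII replicate 3. The cause was not tested. Whether the replicate numbers pair the samples was not settled. Of 15 correlations of same-numbered libraries, 6 were over 0.1 (-0.35 to 0.43), and differently numbered libraries were not compared. With the replicate block the C1qtnf6 call in AngII minus vehicle held (adjusted p = 0.0395). No other member was called under any alternative.

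Small differences changed sign. C1qtnf9 in AngII minus vehicle was 0.32 with array quality weights (-0.14 to 0.36 with 1 library left out). In AngII plus OA minus AngII it was -0.28 with the weights (-0.29 to 0.20), and in AngII plus OA minus vehicle -0.013 with quantile normalization and -0.032 with rescaling. C1qtnf2 in AngII plus OA minus AngII was 0.043 with quantile normalization and 0.14 with the weights (-0.13 to 0.081), and in AngII plus OA minus vehicle it was -0.024 to 0.37 with 1 library left out. C1qtnf1 in AngII plus OA minus vehicle ran from -0.098 to 0.075 with 1 library left out, and from -0.14 to 0.075 over all 17 alternatives.

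Among other genes in AngII minus vehicle, quantile normalization gave C1qtnf12 -0.063, Adipor1 -0.017 and Stk11 -0.049, rescaling gave C1qtnf12 -0.024, and leaving out 1 library gave C1qtnf12 -0.036 to 0.11 and Stk11 -0.0095 to 0.19. In AngII plus OA minus AngII, C1qtnf12 was -0.0100 with the weights (-0.013 to 0.0996), and Appl2 was -0.019 to 0.26. In AngII plus OA minus vehicle, C1qtnf4 was 0.0033 with a pseudocount of 0.1 and 0.036 with the weights (-0.14 to 0.19), and Serpinh1 was -0.049 with quantile normalization, -0.028 with rescaling and -0.011 with the weights (-0.024 to 0.18). With 1 library left out C1qtnf12 was -0.0031 to 0.16, Adipor1 -0.066 to 0.018, Akt1 -0.099 to 0.044 and Stk11 -0.12 to 0.014. C1qtnf1, with 77 to 186 reads, and C1qtnf2, with 65 to 249, had the widest counting error.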
